A study of Mus musculus with 10 samples.

Results

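The interferon-inducible genes Ifi202b, Ifi204, Ifit1, Ifit2, Ifit3 and Isg15 and the interferon transcription factors Irf1, Irf7 and Stat2 were followed in mouse primary cortical neurons exposed to lactacystin, an irreversible inhibitor of the proteasome. Every probe set whose platform annotation names any of these 9 genes was taken, which gave 13 of the 12488 probe sets of the newer array design (U74Av2). The genes were chosen by their measured values in these same arrays, lactacystin against control, so their changes are given below as a description, with no test, and support nothing. Of the 13 probe sets, 10 were on both array designs, 3 were on the newer one alone, 11 carried 1 gene symbol and 2 carried several. Stat2 had no probe set, so 8 of the 9 genes were measured.

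RNA came from cortical cultures of foetal Swiss Albino mice taken at gestation day 15 to 16 and treated on day 5 in vitro. The groups were 1 µM lactacystin for 24 h (3 arrays), control at 24 h (2 arrays), 1 µM lactacystin for 48 h (3 arrays) and control at 48 h (2 arrays). The labels name a DMSO stock of lactacystin and a serum-free medium, and do not say whether the controls received DMSO or whether replicates were separate cultures. Each group mixed 2 array designs: U74A held the first replicate of both controls and of lactacystin at 24 h, plus the third of lactacystin at 48 h, and its revision U74Av2 held the other 6. Values are scaled signals on a linear scale, each array brought to a trimmed mean of 500, and log2 changes are of signal plus 32, fitted with array design as a covariate and given with their standard error (SE). That offset shrinks the log2 change of a low signal, whose true size is not known, and 19.9% to 27.8% of an array's values lay under the offset. Of all the neuron markers listed, the 11 that were measured passed the filter on low signal, with summed signals of 20598 to 26199 at 24 h with lactacystin against 29349 to 38408 in control, and of 23360 to 33718 at 48 h with lactacystin against 35214 to 39784 in control. In these bulk cultures fewer cells of a type and less RNA per cell cannot be told apart.

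Interferons bind receptors at the cell surface, whose kinases, JAK1 and TYK2 for interferon alpha, phosphorylate STAT proteins. A complex that holds STAT2 and IRF9 binds the interferon-stimulated response element (ISRE), and the gamma-activated sequence (GAS) is the other DNA element of the response. IRF1, which answers interferon gamma and other stimuli, and IRF7, the amplifier of interferon alpha, act as further transcription factors of the response. Ifi202b and Ifi204 belong to the p200 family of interferon-inducible proteins that bind DNA through HIN domains. The Ifit genes encode tetratricopeptide repeat proteins that bind viral RNA, and Isg15 encodes a ubiquitin-like modifier. In neurons the response is best known from viral infection.

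The promoter stretches below are shown so that Ifi202b can be set beside genes of the canonical response. They are RefSeq sequences of build GRCm38.p6, whose strain is C57BL/6J and not that of these cultures, and give the 160 bases before a start of each gene, on the strand of the gene. For Ifit3 the start used lies inside the annotated gene, whose first base is chr19:34583119. Capitals mark the ISRE core, searched as GAAANNGAAA, and the GAS core, searched as TTCNNNGAA, both on either strand, so that an ISRE core on the other strand reads as its complement. The Isg15 capitals hold 3 ISRE cores that overlap.
Ifi202b (chr1:173982845-173983004, minus strand): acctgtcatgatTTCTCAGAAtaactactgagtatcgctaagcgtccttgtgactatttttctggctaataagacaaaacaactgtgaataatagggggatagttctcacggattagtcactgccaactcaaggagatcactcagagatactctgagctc
Irf1 (chr11:53769854-53770013, plus strand): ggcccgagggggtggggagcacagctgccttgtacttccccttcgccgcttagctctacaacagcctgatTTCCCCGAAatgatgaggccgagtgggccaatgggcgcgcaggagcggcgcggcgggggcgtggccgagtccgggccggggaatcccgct
Ifit1 (chr19:34640729-34640888, plus strand): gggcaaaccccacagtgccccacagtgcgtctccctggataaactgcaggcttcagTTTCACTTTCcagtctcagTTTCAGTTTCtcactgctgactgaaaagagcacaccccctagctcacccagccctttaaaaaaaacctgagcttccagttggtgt
Ifit3 (chr19:34583369-34583528, plus strand): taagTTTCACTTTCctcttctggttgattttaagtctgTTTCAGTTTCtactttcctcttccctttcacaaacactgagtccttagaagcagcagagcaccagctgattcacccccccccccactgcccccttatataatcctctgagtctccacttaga
Isg15 (chr4:156200819-156200978, minus strand): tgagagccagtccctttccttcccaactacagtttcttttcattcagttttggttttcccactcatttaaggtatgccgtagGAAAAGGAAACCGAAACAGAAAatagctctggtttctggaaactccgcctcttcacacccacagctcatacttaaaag

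Windows of 250 bases before to 50 after the start were searched for both motifs. Of the 32851 RefSeq windows, 3.44% held an ISRE core and 8.30% a GAS core. A window was listed for 8 of the 9 genes, all but Ifi204. An ISRE core was present for 4 of the 8, with 3 matches for Isg15, 2 each for Ifit1 and Ifit3 and 1 for Stat2. A GAS core was present for 3, which were Ifi202b, with its first base at -148 from the start, Irf1 at -90 and Ifit2 at -241. Neither was in the Irf7 window. A further window of Ifit2 and of Irf1 held neither core. As for Ifit3, the starts of the Ifit2, Irf7 and further Irf1 windows lie inside the annotated gene. A match is a run of letters and not a shown binding site.

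The p200 genes had the largest changes of the 9 at 24 h. Ifi202b lies at chr1:173962569-173982844 (GRCm38.p6, minus strand) and encodes p202, which binds cytosolic DNA and opposes the sensor AIM2 in mice. Its probe set 94774_at read 280.8, 251.9 and 229.0 with lactacystin at 24 h, against 1.38 and 13.0 in control. The groups did not overlap, and both control signals lay under the offset of 32, a range in which the order of signals carries no information. At 48 h it read 46.9, 102.4 and 35.1 with lactacystin, against 18.9 and 1.92 in control. All 3 lactacystin signals were above both controls again, but each was under every lactacystin signal of 24 h.

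Mean signals of Ifi202b were 253.9 ± 26.0 with lactacystin (SD, n = 3) and 7.19 ± 8.22 in control (SD, n = 2) at 24 h. They were 61.4 ± 35.9 with lactacystin (n = 3) and 10.4 ± 12.01 in control (n = 2) at 48 h. The log2 change was 2.86 ± 0.31 at 24 h, in 8th place among the 9977 probe sets shared by the array designs when ranked by their rise. It was 1.09 ± 0.31 at 48 h. Within U74A, which held 1 array per group, the change was 3.23 at 24 h and 0.40 at 48 h, and within U74Av2 it was 2.60 and 1.60. Without replicate 2 of the 48 h control the 48 h change was 0.63. The 48 h change minus the 24 h change was -1.78 ± 0.44, and 48 h control minus 24 h control was 0.10 ± 0.34.

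A further probe set, 161173_f_at, is annotated to Ifi202b together with a second locus, and the suffix f marks probes shared by a gene family. It was on U74Av2 alone, with 68.3 and 62.4 with lactacystin against 4.49 in control at 24 h, and 38.0 and 35.4 with lactacystin against 2.92 in control at 48 h. Its lactacystin signals were above the single control array at both times. The p200 genes are near-identical copies of each other in places, so that signal of this family is uncertain between its genes.

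Ifi204 encodes p204, a relative of human IFI16 that joins a pyrin domain to its HIN domains. Its probe set 98465_f_at read 122.0, 146.5 and 128.6 with lactacystin at 24 h, against 2.48 and 3.21 in control. At 48 h the signals were 7.61, 50.04 and 6.17 with lactacystin, against 4.70 and 5.21 in control. The 24 h groups were far apart, while at 48 h only replicate 2 of lactacystin exceeded the offset of 32. The log2 change was 2.20 ± 0.28 at 24 h, in 17th place among the 9977, and 0.40 ± 0.28 at 48 h, which came to 0.07 without replicate 2. Replicate 2 was also the highest of the 48 h lactacystin arrays for Ifi202b.

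The other p200 probe sets gave smaller changes. The probe set 94224_s_at, annotated to Ifi204 with Mndal, Ifi211 and Ifi205, read 62.1, 42.8 and 64.2 with lactacystin against 4.51 and 6.23 in control at 24 h. It read 4.22, 33.6 and 5.34 with lactacystin against 13.6 and 3.93 in control at 48 h. Its log2 change was 1.23 ± 0.26 at 24 h and 0.14 ± 0.26 at 48 h, with overlap between the 48 h groups. The Ifi204 probe set 98466_r_at, whose suffix marks probes that missed some design rules, ranged from 0.65 to 27.6 over all arrays, all under the offset, with changes of 0.25 ± 0.16 and 0.38 ± 0.16. On U74Av2 alone, the Ifi204 probe set 161180_r_at read 48.3 and 39.2 with lactacystin against 29.1 in control at 24 h, and 17.4 and 23.5 with lactacystin against 24.3 in control at 48 h. Over the 10 arrays, with the array design effect removed, Pearson's r of Ifi202b was 0.96 with 98465_f_at and 0.93 with 94224_s_at. These values share their arrays and scaling, and possibly probes.

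**Figure D1:**
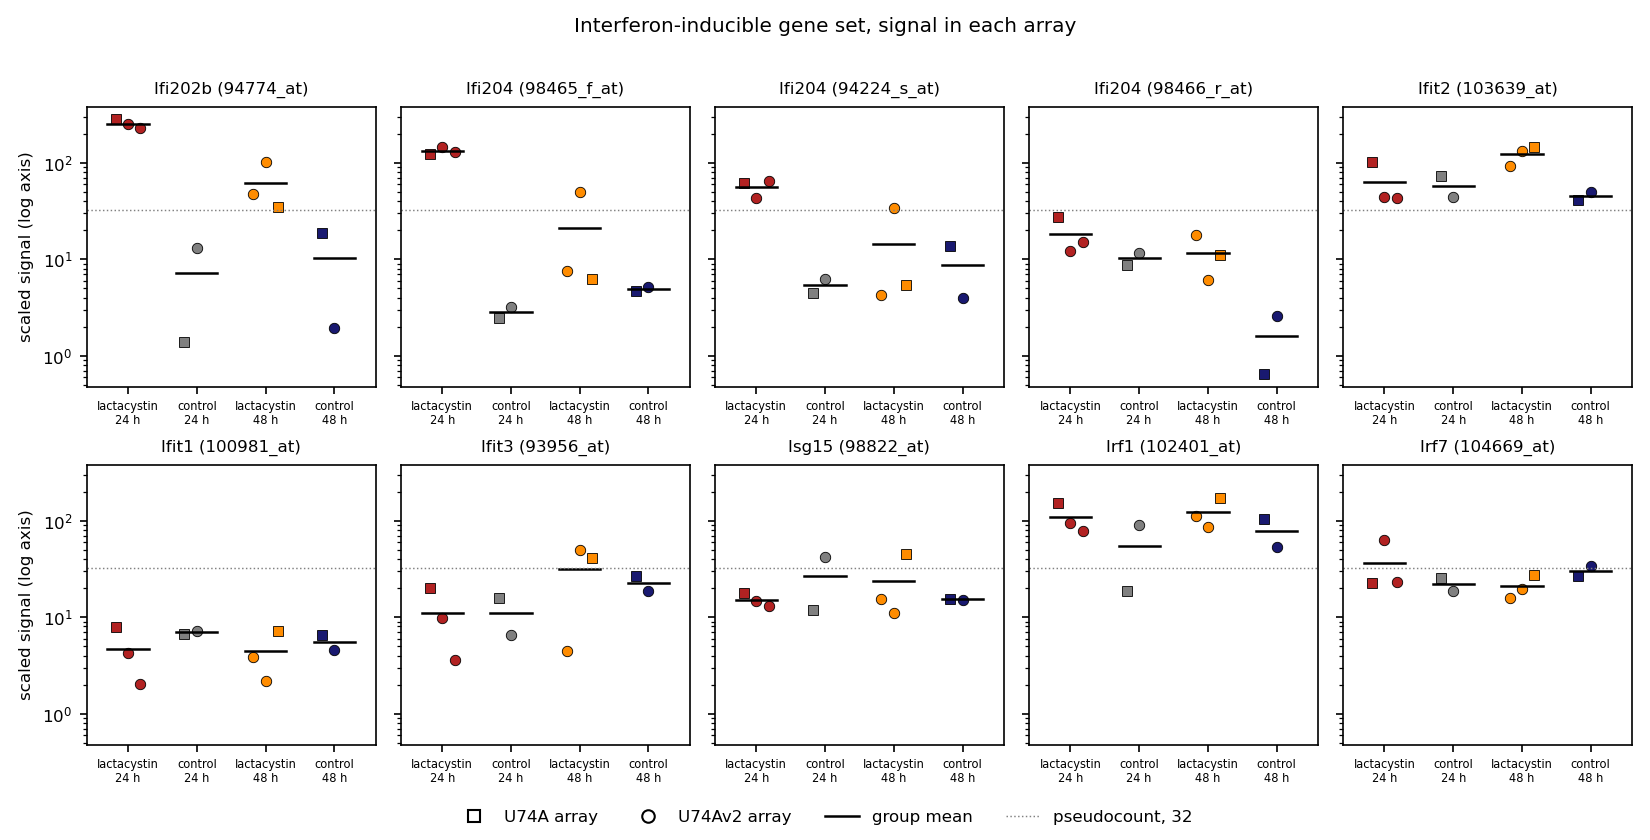
Scaled signal (log axis) of the 10 probe sets on both array designs in each of the 10 arrays, by group. Squares are U74A arrays, circles U74Av2 arrays, bars group means and the dotted line the offset of 32; Ifi202b and the Ifi204 probe set 98465_f_at are above 100 in every lactacystin array at 24 h and under 20 in every control array.

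The Ifit genes neighbour each other on chromosome 19. Ifit2, which encodes an antiviral protein, lies at chr19:34550550-34576534 (plus strand). It read 102.4, 43.6 and 43.2 with lactacystin against 72.2 and 43.8 in control at 24 h. At 48 h it read 92.0, 132.9 and 145.2 with lactacystin, against 40.9 and 49.6 in control. The groups overlapped at 24 h and were apart at 48 h. Its log2 change was 0.11 ± 0.25 at 24 h and 1.06 ± 0.25 at 48 h, and at 48 h it was 1.28 within U74A and 0.81 within U74Av2. The difference between the changes was 0.95 ± 0.35.

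Ifit1, which binds RNA lacking cap methylation, ranged from 2.01 to 7.88 over all 10 arrays, so no difference could be detected at this signal. Ifit3, the partner that stabilises IFIT1 in humans, read 19.8, 9.77 and 3.57 with lactacystin against 15.6 and 6.50 in control at 24 h. It read 4.40, 49.8 and 41.3 with lactacystin against 26.6 and 18.5 in control at 48 h, and the groups overlapped at both times. Isg15 read 17.7, 14.6 and 13.1 with lactacystin against 11.9 and 41.9 in control at 24 h. Its 48 h signals were 15.3, 11.1 and 45.3 with lactacystin, against 15.6 and 15.0 in control. Single arrays of either group were the high ones for Isg15, and 8 of its 10 signals, like 8 of 10 for Ifit3, lay under the offset.

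Irf1 was the measured transcription factor of the set that passed the filter on low signal. It read 151.1, 93.8 and 78.5 with lactacystin against 18.9 and 90.9 in control at 24 h, and 112.7, 86.8 and 171.3 with lactacystin against 103.8 and 53.8 in control at 48 h. The groups overlapped at both times. Its log2 changes were 0.83 ± 0.37 and 0.53 ± 0.37. The 24 h change rested on the low signal of control replicate 1, since it was -0.06 without that array and within U74Av2, and 1.85 within U74A. Without control replicate 2 it was likewise 1.85.

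Irf7 read 22.8, 63.4 and 23.1 with lactacystin against 25.4 and 18.5 in control at 24 h, and 15.8, 19.5 and 27.4 with lactacystin against 26.8 and 33.5 in control at 48 h. Replicate 2 of lactacystin at 24 h was the high array, and the groups overlapped. A second Irf7 probe set on U74Av2 alone, 162202_f_at, read 119.1 and 100.2 with lactacystin against 112.2 in control at 24 h, and 140.1 and 115.0 with lactacystin against 93.7 in control at 48 h. Its lactacystin signals lay on either side of the control array at 24 h and above it at 48 h.

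Of the 10 probe sets on both designs, 3 passed the filter that left out the 30% with the lowest mean signal, namely Ifi202b, Ifit2 and Irf1. Ifi202b alone of these 3 was past the threshold of adjusted p 0.05 in limma at 24 h, and Ifi202b and Ifit2 at 48 h. Of the 5541 named genes tested, 8.66% were past it and higher with lactacystin at 24 h and 7.13% at 48 h. Nothing is read from these counts, since the same contrasts chose the genes and the low ones passed the filter only through a group in which they were high. With no filter Ifi202b, 98465_f_at and 94224_s_at were past the threshold at 24 h and Ifit2 at 48 h. The shares above are of the filtered fit and do not apply to these calls. The share of all probe sets past the threshold with no filter is not given here, so nothing is read from them either. Every lactacystin array was above both controls for 4 of the 10 probe sets at each time, against 13.8% of all shared probe sets at 24 h and 14.7% at 48 h. These counts include orderings under the offset, namely 98466_r_at at both times and, for 2 of its 3 lactacystin arrays, 98465_f_at at 48 h. Just inside the filter, which lay at a mean signal of 54.8, was Ifit2 at 76.6, and just outside it the Ifi204 probe set 98465_f_at at 47.6.

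**Figure D2:**
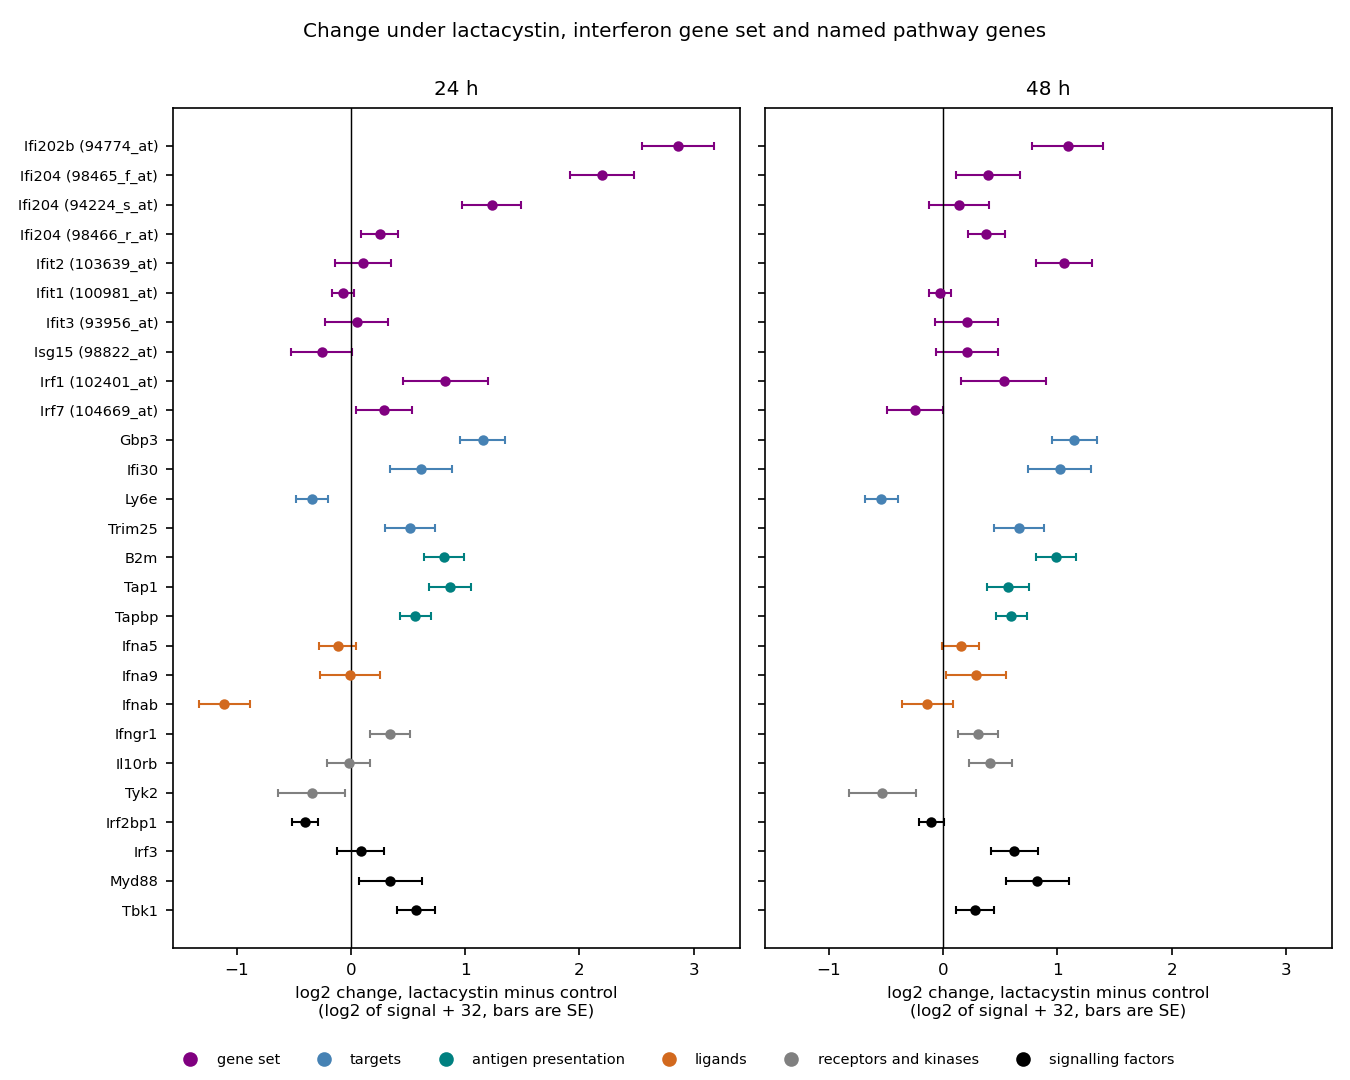
Log2 change of lactacystin minus control (horizontal axis, signal plus 32, bars are SE of the fit) at 24 h and 48 h for the 10 probe sets of the gene set and 17 named pathway genes. Ifi202b is farthest to the right at 24 h (2.86), and Gbp3 (1.15), Ifi202b (1.09) and Ifit2 (1.06) are at 48 h.

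The wider interferon pathway was counted over lists of ligands, receptors, signalling factors and targets that leave out the 9 genes, each gene by its probe set of highest mean signal. All lists, those of antigen presentation and of cell markers included, were drawn up with earlier results of these data known. Their counts and adjusted p are therefore not independent support. Among the ligands, 9 were measured and 3 passed the filter. Ifnab, an interferon alpha gene, read 88.4, 42.4 and 26.2 with lactacystin against 206.3 and 121.5 in control at 24 h, with the groups apart. It fell by 1.11 ± 0.22 on the log2 scale (limma, adjusted p = 0.0073), while 6.68% of all named genes fell at that time. At 48 h it was at -0.14 ± 0.22 (adjusted p = 0.77). With no array design covariate the 24 h call of Ifnab was lost (-1.25, limma, adjusted p = 0.18). Interferon alpha genes are near-identical copies, and their signals are uncertain between them. Ifna5 and Ifna9 were not past the threshold at either time, at -0.11 ± 0.16 and -0.01 ± 0.26 at 24 h and 0.15 ± 0.16 and 0.29 ± 0.26 at 48 h. Ifnb1, encoding interferon beta, and Ifng, encoding interferon gamma, were among the 6 ligands under the filter. Ifnb1 ranged from 39.3 to 55.8 with lactacystin against 24.4 to 52.2 in control at 24 h, with overlap, and Ifng from 2.01 to 19.1 with lactacystin against 2.02 to 2.30 in control. The Ifnab call at 24 h was lost without control replicate 2 (-0.97, adjusted p = 0.13) and on U74Av2 alone (-1.22, adjusted p = 0.069).

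All 7 measured receptors and kinases passed the filter and none was past the threshold at either time. The largest changes were those of Tyk2, a kinase of the interferon alpha receptor, at -0.34 ± 0.29 at 24 h and -0.53 ± 0.29 at 48 h (limma, adjusted p = 0.47 and 0.30). Ifngr1, the ligand-binding chain of the interferon gamma receptor, was at 0.34 ± 0.17 and 0.30 ± 0.17 (adjusted p = 0.21 and 0.32). Il10rb, which also serves interferon lambda, was at -0.02 ± 0.19 and 0.41 ± 0.19 (adjusted p = 0.97 and 0.20).

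Of 10 measured signalling factors 8 were tested, and at 24 h 1 rose and 1 fell, where 8.66% of all named genes rose and 6.68% fell. Tbk1, the kinase that phosphorylates IRF3, read 721.0, 727.7 and 714.6 with lactacystin against 621.3 and 399.8 in control, a rise of 0.57 ± 0.17 (limma, adjusted p = 0.042). Irf2bp1, a co-repressor bound by IRF2, read 900.9, 929.8 and 947.6 with lactacystin against 1092 and 1347 in control, and fell by 0.40 ± 0.11 (adjusted p = 0.036). Both calls were near the threshold. Control replicate 2 stood farther from the lactacystin arrays in both genes, and without it Tbk1 was at 0.41 and Irf2bp1 at -0.28 (adjusted p = 0.37 and 0.34). Leaving out any other 24 h array ended the Irf2bp1 call (adjusted p = 0.051 to 0.11). The Tbk1 call also ended without lactacystin replicates 2 or 3 or control replicate 1 at 24 h, or either control at 48 h (adjusted p = 0.058 to 0.12). None of the 8 was past the threshold at 48 h, where Myd88, an adaptor of Toll-like receptors, was at 0.83 ± 0.28 and Irf3 at 0.62 ± 0.21 (adjusted p = 0.085 and 0.081).

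Outside the 9 genes, 50 interferon-inducible targets were measured and 20 passed the filter, while 17 of the 50 had a mean signal under 32. At 24 h 1 of the 20 rose and none fell, and at 48 h 2 rose and 1 fell, where 8.66% and 7.13% of all named genes rose and 6.68% and 3.7% fell. The median log2 change of the tested targets was -0.09 at 24 h and 0.25 at 48 h, against -0.03 and 0.04 over all named genes tested.

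Gbp3, a guanylate-binding GTPase of cell-autonomous defence, was the target called at both times. It read 238.3, 151.3 and 161.8 with lactacystin against 61.3 and 70.6 in control at 24 h, and 123.8, 164.4 and 167.2 with lactacystin against 58.8 and 46.8 in control at 48 h. The groups did not overlap at either time. It rose by 1.15 ± 0.20 at 24 h and 1.15 ± 0.20 at 48 h (limma, adjusted p = 0.0028 and 0.0045). With no array design covariate its 48 h call was lost (1.11, adjusted p = 0.0503). The change within U74A and within U74Av2 was 1.53 and 0.88 at 24 h, and 1.13 and 1.15 at 48 h. The call was lost on U74Av2 alone at 24 h (adjusted p = 0.072) and without control replicate 2 at 48 h (1.15, adjusted p = 0.053).

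Ifi30, the lysosomal thiol reductase that prepares antigens, read 177.8, 273.8 and 63.3 with lactacystin against 29.0 and 77.3 in control at 48 h, so that the groups overlapped. The fit, which adjusts for array design, gave a rise of 1.02 ± 0.27 (limma, adjusted p = 0.036), and within U74A and U74Av2 it was 0.64 and 1.21. Ly6e, a GPI-anchored surface protein, read 1384, 1020 and 1254 with lactacystin against 1632 and 1864 in control, and fell by 0.54 ± 0.14 (adjusted p = 0.034). Its second probe set, 101488_r_at, was under the filter and at -0.17 ± 0.18. Both calls were near the threshold, with Ifi30 lost in 13 of 21 alternatives and Ly6e in 13 of 22. Each was lost without lactacystin replicate 2 or either control replicate at 48 h, lactacystin replicate 2 or either control replicate at 24 h, Ifi30 also without lactacystin replicate 1 at 48 h and Ly6e also without lactacystin replicate 3 at 24 h. Over these arrays the value without the array was 0.79 to 1.06 for Ifi30 (adjusted p = 0.054 to 0.22) and -0.56 to -0.40 for Ly6e (adjusted p = 0.0505 to 0.23). Trim25, the ubiquitin ligase that activates the RNA sensor RIG-I, was at 0.52 ± 0.22 and 0.67 ± 0.22 (adjusted p = 0.14 and 0.081).

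Among the low targets, Gbp2 was singled out after its values were seen. This relative of Gbp3 was under the filter and read 18.3, 25.6 and 11.3 with lactacystin against 13.4 and 9.16 in control at 24 h, and 96.7, 75.2 and 69.4 with lactacystin against 5.72 and 9.14 in control at 48 h. The 48 h groups were far apart, with a change of 1.50 ± 0.17 (limma with no filter, adjusted p = 0.0021), against 0.20 ± 0.17 at 24 h (adjusted p = 0.55). The difference between those changes was not past the threshold (adjusted p = 0.063 with no filter). Gbp2 was the only one of the 30 targets under the filter to pass the threshold in the fit with no filter at 48 h, and none did so at 24 h.

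**Figure D3:**
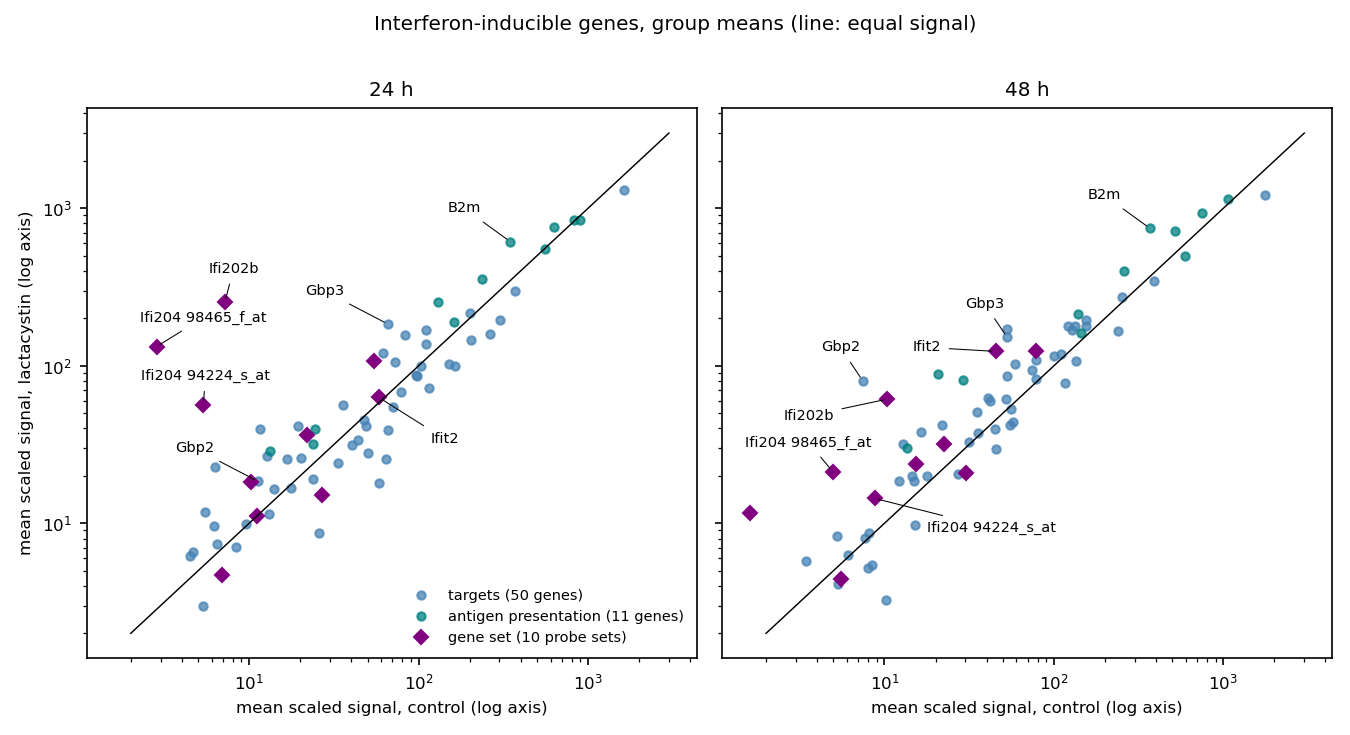
Mean scaled signal with lactacystin (vertical, log axis) against control (horizontal, log axis) at 24 h and 48 h for 50 interferon-inducible targets, 11 antigen presentation genes and the 10 probe sets of the gene set, with the line of equal signal. Ifi202b and the Ifi204 probe sets 98465_f_at and 94224_s_at lie far above the line at 24 h, and Gbp2 (80.4 against 7.43) lies farthest above it among the targets at 48 h.

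Genes of antigen presentation by MHC class I are induced by interferon gamma in many cell types. Of its 11 measured genes 8 were tested, 3 rose at 24 h and 2 at 48 h, and none fell, where 8.66% and 7.13% of all named genes rose and 6.68% and 3.7% fell. B2m, the light chain of MHC class I, read 747.4, 629.7 and 465.0 with lactacystin against 349.3 and 344.6 in control at 24 h, and 664.4, 553.9 and 1015 with lactacystin against 417.2 and 321.1 in control at 48 h. The groups were apart at both times, with rises of 0.81 ± 0.18 and 0.99 ± 0.18 (limma, adjusted p = 0.010 and 0.0056). With no array design covariate both calls were lost (0.75 and 0.92, adjusted p = 0.18 and 0.14). The B2m call was lost without control replicate 1 at 24 h (0.58, adjusted p = 0.12) and without control replicate 1 or 2 at 48 h (0.95 and 1.03, adjusted p = 0.061 and 0.062).

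Tap1, part of the peptide transporter, read 273.3, 219.4 and 269.0 with lactacystin against 156.5 and 103.8 in control at 24 h, and rose by 0.86 ± 0.19 (limma, adjusted p = 0.0096). At 48 h it was at 0.57 ± 0.19 (adjusted p = 0.077). With no array design covariate its 24 h call was lost (0.83, adjusted p = 0.073). Tapbp, the tapasin that links that transporter to MHC class I, read 422.5, 325.7 and 323.1 with lactacystin against 256.6 and 217.3 in control at 24 h. It rose by 0.56 ± 0.14 at 24 h and 0.59 ± 0.14 at 48 h (adjusted p = 0.018 at each), though its other probe set was at 0.34 ± 0.16 and 0.33 ± 0.16 and not past the threshold (adjusted p = 0.19 and 0.23). With no array design covariate both Tapbp calls were lost (0.53 and 0.56, adjusted p = 0.15 and 0.17). The Tap1 call was lost without control replicate 2 at 24 h (0.68, adjusted p = 0.17). The Tapbp call was lost at 24 h without lactacystin replicate 1 or either control (0.49 to 0.57, adjusted p = 0.065 to 0.13), and at 48 h without lactacystin replicate 1 or 3 or either control (0.47 to 0.74, adjusted p = 0.052 to 0.15).

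The MHC class I heavy chains, near-identical copies between which signal is uncertain, did not pass the threshold. H2-D1 was at 0.27 ± 0.13 at 24 h and 0.46 ± 0.13 at 48 h (limma, adjusted p = 0.20 and 0.052), and H2-K1 at 0.10 ± 0.13 and 0.37 ± 0.13 (adjusted p = 0.66 and 0.099). The immunoproteasome subunit Psmb9, under the filter and chosen after its values were seen, read 68.2, 90.03 and 106.8 with lactacystin against 27.2 and 14.4 in control at 48 h, a change of 1.29 ± 0.29 (adjusted p = 0.038 with no filter). At 24 h its groups overlapped.

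For none of the tested genes of these 5 lists did the change differ between 24 h and 48 h past the threshold, where 1.25% of all named genes did in either direction. In control cultures 0% of named genes differed between 48 h and 24 h.

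Some markers of other cells also moved. Of 16 measured microglia and macrophage markers 10 were tested, with 1 past the threshold and higher at 24 h (Cd68) and 3 at 48 h (Cd68, Ctss and Tyrobp). Of all named genes, 8.66% were so at 24 h and 7.13% at 48 h, while 6.68% and 3.7% were lower. Their summed signal was 1238 to 2128 with lactacystin against 1209 to 1570 in control at 24 h, and 1572 to 2732 with lactacystin against 987 to 1796 in control at 48 h. The defining markers Itgam and Adgre1 stayed under a signal of 32 in every array, and Ptprc in all but replicate 3 of lactacystin at 48 h. Others were above 32 in every array: over both times Cx3cr1 read 142.1 to 280.1 with lactacystin against 167.0 to 331.1 in control, Csf1r 53.3 to 96.4 with lactacystin against 45.4 to 93.2 in control, and C1qc 112.5 to 388.9 with lactacystin against 139.1 to 305.4 in control. Of the 16, 5 had a mean signal under 32. Cd68 read 603.2, 370.2 and 365.2 with lactacystin against 171.2 and 130.7 in control at 24 h. Fibroblast, mural and meningeal markers summed to 5392 to 6844 with lactacystin against 4037 to 4225 in control at 48 h, and 3931 to 5350 with lactacystin against 3773 to 4276 in control at 24 h. Of the 11 of these that were tested, 1 rose at 24 h and 2 at 48 h, and none fell. Their median log2 change was -0.11 at 24 h and 0.15 at 48 h. Endothelial markers summed to 456 to 535 with lactacystin against 339 to 392 in control at 24 h, and 404 to 452 with lactacystin against 255 to 361 in control at 48 h. Of 8 measured endothelial markers 3 were tested and none passed the threshold at either time, while 4 had a mean signal under 32. Of 10 tested astrocyte and radial glia markers 2 rose and 3 fell at 24 h and 4 rose at 48 h, while of 11 neuron markers 4 fell at 24 h and 3 at 48 h. No tested oligodendrocyte or erythroid marker passed the threshold at either time. The part of these markers in the values of the interferon genes was not tested.

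Among the named genes past the filter, those whose pattern over the 10 arrays was most like that of Ifi202b were not of the interferon lists. Genes under the filter could not appear. These included 30 of the 50 measured targets and 6 of the 9 ligands. The Ifi204 probe set 98465_f_at was also under the filter, but its r of 0.96 was below those of the 6 genes given here. With array design removed, Pearson's r was 0.99 for Phlda3, which encodes a pleckstrin homology domain protein, and 0.99 for Cdkn1a, an inhibitor of cyclin-dependent kinases. It was 0.98 for Crybg1, for Apba3, an adaptor protein, and for Lmna, which encodes the lamins A and C, and 0.97 for Ghitm, a protein of the mitochondrial inner membrane. These are the 6 highest of the named genes tested, given as a description without a test, and all share the arrays and their scaling.

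Their shared course was high at 24 h with lactacystin and nearer to control at 48 h. Cdkn1a read 1118, 1211 and 1149 with lactacystin against 356.7 and 513.0 in control at 24 h, and 693.3, 717.1 and 568.6 with lactacystin against 440.2 and 388.8 in control at 48 h. Its log2 changes were 1.34 ± 0.15 and 0.60 ± 0.15. Lmna changed by 1.69 ± 0.13 and 0.52 ± 0.13, and Phlda3 by 1.30 ± 0.18 and 0.57 ± 0.18. Unlike Ifi202b, all 6 had signals above 30 in every control array. Low control signals were not particular to Ifi202b among genes of this pattern. Below the 6, Fosl1 (r = 0.97), named after its values were seen, had control signals of 10.6 to 14.6. It changed by 3.02 ± 0.24 at 24 h and 1.08 ± 0.24 at 48 h.

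**Figure D4:**
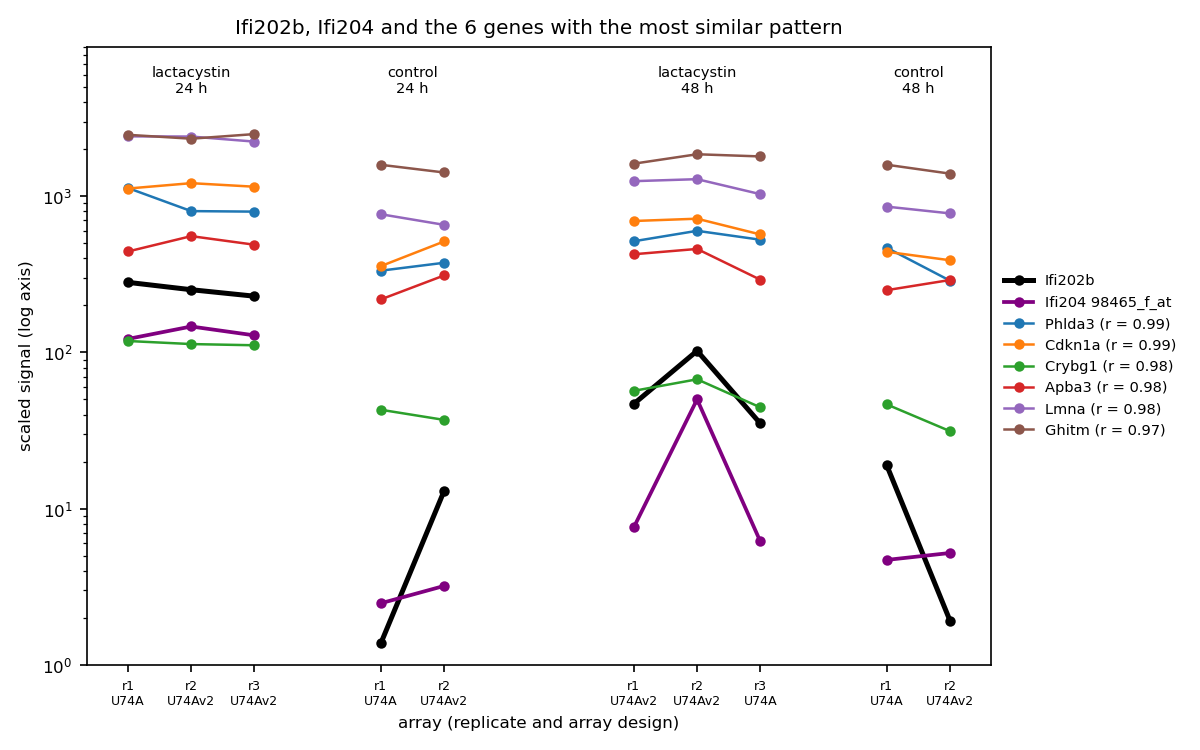
Scaled signal (log axis) of Ifi202b, the Ifi204 probe set 98465_f_at and the 6 genes with the most similar pattern in each array, with replicate number and array design under each point. Each line joins the arrays of 1 group, and all 8 have their highest signal in a 24 h lactacystin array; Ifi202b and Ifi204 have control signals under 20.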

How the data were processed

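Total RNA of 10 samples was measured on Affymetrix arrays. The authors deposited intensities, a linear signal for each probe set, made with MAS5 per the submitters' processing notes (in the sources used here its version is not given). Detection calls were not used.

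Each array was scaled to a 2% trimmed mean of 500 over the 9977 non-control probe sets on both designs, 32 was added as a pseudocount, and log2 was taken. The 30% lowest by mean signal (under 54.8) were set aside, and 6984 were tested. One limma 3.58.1 model (R 4.3.3; eBayes with trend) held the 4 groups and array design, with 5 residual degrees of freedom. Tests were two-sided and adjusted by Benjamini-Hochberg over the 6984, at a threshold of 0.05, and every adjusted p in the text comes from limma. Array design cannot be told apart from any batch that went with it. No label says that replicates came from different cultures. The p-values therefore cover only the spread between these arrays, which may be technical, and their number limits the precision.

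The 9 genes and the lists were chosen with earlier results of these data known. Gene names are those of the platform annotation, from probe sets of 1 symbol outside the set. Pathway genes named were those past the threshold (up to 8 per list) and the 3 of each list with the largest change. H2-D1, H2-K1, Gbp2, Psmb9, Ifnb1, Ifng, Ifi207, Ifi209, Fosl1 and the markers were named after their values were seen. The fit was tested on simulated data. Alternatives were other pseudocounts, filters, scalings and variance models, no design covariate, U74Av2 alone, each time alone, a replicate block and each array left out. Deviations of same-numbered arrays from their group means correlated at -0.62 to 0.68, and at -0.41 to 0.27 once array design was removed. Replicate number went largely with array design, so this check cannot tell pairs from design. The numbers were not taken as pairs.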

Additional observations from a re-analysis of the deposited data

How the results depend on the processing

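Counts of calls moved more than the log2 changes behind them, and the cause was not tested unless named. The log2 change of Ifi202b stayed between 2.15 and 3.57 at 24 h and between 0.63 and 1.60 at 48 h. Of the 9 genes, 2 probe sets were called at 48 h, but this count differed in 17 of 22 alternatives. It was 1 with pseudocount 64, with no filter, with eBayes without trend and with groups of 1 time alone, and 0 with the lowest 50% left out, with quantile normalization, with no array design covariate and on U74Av2 arrays alone. At 24 h the count of 1 became 3 with no filter and 0 with the lowest 50% left out. Nothing is read from these counts of the 9 genes, and the share of all probe sets with no filter is not given here.

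The target count of 1 at 24 h became 0 with the lowest 50% left out and on U74Av2 alone, 2 with the replicate block and 3 with 1 time alone. The count of 3 at 48 h became 1 with the lowest 50% left out, with quantile normalization, on U74Av2 alone and with 1 time alone, and 0 without the design covariate. The antigen presentation count of 3 at 24 h became 0 without the design covariate and 1 on U74Av2 alone. The count of 2 at 48 h became 1 with a common median, quantile normalization, the replicate block and 1 time alone, and 0 without the design covariate and on U74Av2 alone. The replicate block rests on numbers whose pairing could not be checked apart from array design.

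Over all probe sets, 1038 calls at 24 h became 248 without the design covariate and 558 on U74Av2 alone. The 722 at 48 h became 110 and 388 in those fits, and 440 with 1 time alone. The 86 that differed between the times became 48 with no filter, 168 with a common median, 2 without the design covariate, 12 on U74Av2 alone and 36 with eBayes without trend. In control cultures 0 differed between 48 h and 24 h in limma (391 at an unadjusted p under 0.05).

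Leaving out 1 array at a time gave 308 to 1107 calls at 24 h (lowest without control replicate 2) and 209 to 826 at 48 h (lowest without control replicate 2). It gave 5 to 186 for the difference between the times and 0 to 2 in control cultures. The target count ran from 1 to 2 at 24 h and 0 to 4 at 48 h, the antigen presentation count from 1 to 3 and 0 to 3, and that of the 9 genes from 1 to 2 and 0 to 2. Mean signals under 32 limit Ifit1, Ifit3, Isg15, the Irf7 probe set on both designs, the Ifi204 probe sets 94224_s_at and 98466_r_at and 4 of the 9 ligands.

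Over all alternatives the limma adjusted p of Gbp3 ran from 0.0027 to 0.072 at 24 h and from 0.004 to 0.053 at 48 h, and that of B2m from 0.0079 to 0.18 and from 0.0045 to 0.14. For Tapbp it ran from 0.015 to 0.15 and from 0.016 to 0.17. At 24 h it ran from 0.0064 to 0.17 for Tap1, 0.0032 to 0.18 for Ifnab, 0.014 to 0.37 for Tbk1 and 0.029 to 0.34 for Irf2bp1. At 48 h it ran from 0.0093 to 0.33 for Ifi30 and 0.01 to 0.23 for Ly6e. None of these log2 changes turned direction in any alternative.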
